A study of Rattus norvegicus with 6 samples.

Results

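The AP-1 transcription factors of the rat pancreas were described from the Fos, Jun, Atf3 and Maf genes Fos, Fosb, Fosl1, Fosl2, Jun, Junb, Jund, Atf3 and Maff. A probe counted as a member's when the RefSeq accession that the scanner file gave for it maps to one of these 9 symbols. This held for 6 of 24684 non-control probes, 1 each for Jun (NM_021835.3), Junb (NM_021836.2), Fos (NM_022197.2), Fosl1 (NM_012953.1), Atf3 (NM_012912.1) and Maff (NM_001130573.1), each printed as a single spot per array. Fosb, Fosl2 and Jund had no such probe and are not analysed here.

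RNA came from the pancreas of male rats of 6 weeks in 2 groups, with 3 deposited scans per group. In the acute pancreatitis (AP) group, 4% sodium taurocholate at 1 mL/kg had been injected backwards into the pancreatic duct and the gland was taken after 9 h; this bile salt sets off an acute inflammation of the gland. The other group was labelled control, and the labels do not give its operation or the strain. Each scan was a 1-colour Agilent array of whole-gland RNA.

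AP-1 is a dimer of proteins with a basic DNA-binding region and a leucine zipper. Jun proteins pair with each other or with Fos, Atf3 or Maf proteins, while Fos proteins need a partner of another family. The dimers bind short palindromic DNA elements. Several of the genes are immediate early genes, which MAP kinase signals switch on within minutes of stress or a cytokine, and AP-1 then acts on genes of cytokines, proteases and wound repair. In pancreatic acinar cells, stress kinases and AP-1 are known to be activated early in experimental pancreatitis.

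The scans differed in brightness and 1 pair in each group was not independent. The scans AP 2 and AP 3 came from 1 array, as did control 2 and control 3: how far each spot lay from the other spots of its probe correlated with r = 0.994 and r = 0.993 across 1098 spots, against 0.218 to 0.75 for the other 13 pairs of scans (spots are not independent replicates). All tests therefore compared 2 AP arrays with 2 control arrays, and this number limits the precision of every value. The labels state that RNA came from each rat but do not say how the rats and arrays correspond. The 75th percentile of the signal was 70.4 to 78.1 on the AP scans and 141 to 148 on the control scans, and 10894 to 11357 probes on the AP scans against 13026 to 15379 on the control scans were well above background. Both groups lay on 1 slide, AP in slots 3 and 4 and control in slots 1 and 2, so an effect of the slot and of the group cannot be told apart. Scaled values below are log2 signals less the array's own 75th percentile of log2 signal.

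Jun and Junb, the members whose probes were well above background on all 6 scans, were lower on the arrays labelled AP. Jun encodes c-Jun, the main transactivating partner in AP-1 and a substrate of the JNK kinases. Its signal was 36.7, 31.8 and 35.3 on AP 1, 2 and 3, against 480, 467 and 486 on control 1, 2 and 3. All AP scans lay far below all control scans, and the scans of a group lay close together. After scaling, Jun stood at -1.09 ± 0.01 on AP arrays and 1.72 ± 0.02 on control arrays (SD, n = 2 each), a log2 fold change of -2.81 ± 0.09 (SE, limma adjusted p = 0.000711), or 7.03-fold lower (95% interval 5.87 to 8.43). Of all 13217 probes tested, 55.1% changed at an adjusted p below 0.05 and 28.2% were lower in AP, and 36.9% had every AP scan below every control scan, so such a call by itself was common on these arrays. In bulk tissue, fewer cells that express a gene and less of its RNA per cell cannot be told apart.

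Junb encodes JunB, which activates transcription less strongly than c-Jun and can hold it in check. Its signal was 675, 640 and 650 on AP 1, 2 and 3, against 5796, 5598 and 5831 on control 1, 2 and 3. The groups were again well apart, with little spread within either. The scaled values were 3.14 ± 0.03 on AP arrays and 5.31 ± 0.01 on control arrays (SD, n = 2 each), a log2 fold change of -2.17 ± 0.09 (SE, adjusted p = 0.000953), or 4.49-fold lower (95% interval 3.74 to 5.39). The intervals of Jun and Junb did not overlap, but a difference between their changes was not tested. Their order also depended on the background handling. With normexp correction Jun was -1.62 and Junb -2.38 after the 75th percentile shift, and -1.56 and -2.09 after quantile normalization. The 2 scans of 1 array gave Jun values 0.08 apart for AP and 0.0043 for control, and Junb values 0.05 and 0.0037 apart on the scaled log2 scale, so reading an array again moved them far less than the difference between groups.

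**Figure D1:**
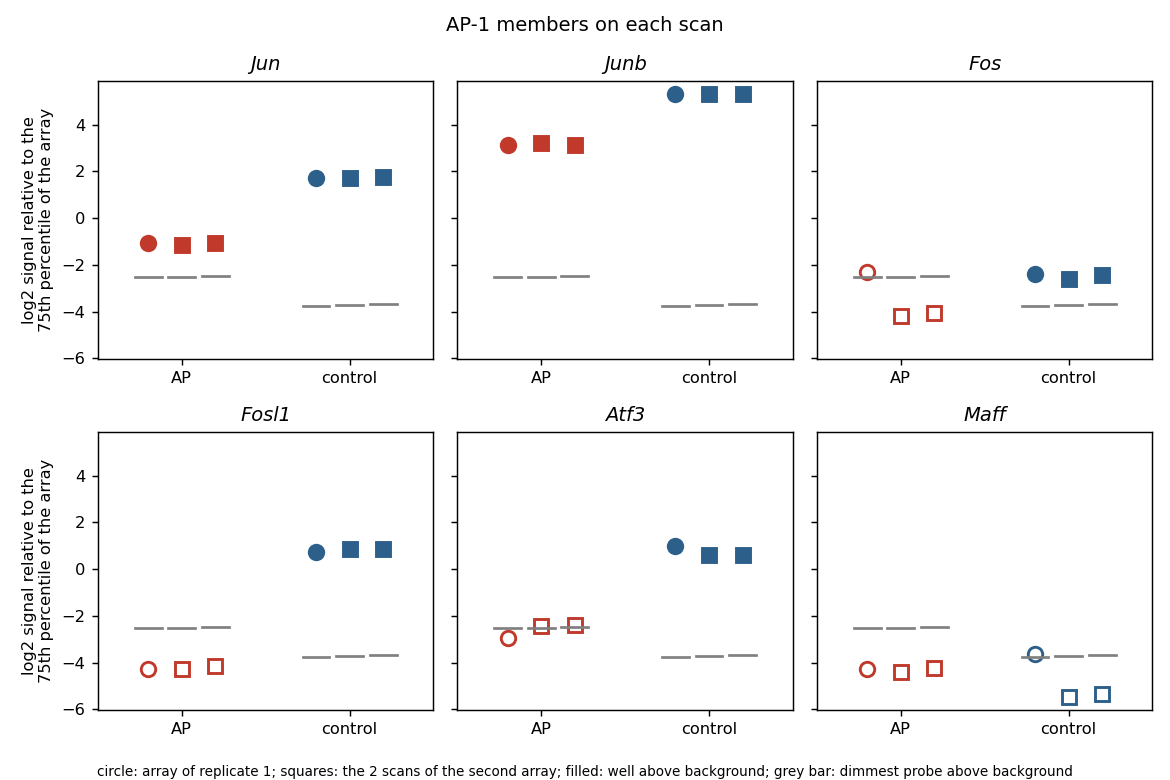
Scaled log2 signal of the 6 members with a probe on each scan, AP left and control right; filled symbols are well above background, open ones are not, and grey bars mark the dimmest probe that was well above background on that scan. Jun and Junb are filled throughout, Fosl1 and Atf3 are open on all AP scans, Maff is open on all scans, and the Fos value of AP 1 lies at the height of the control values.

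The Fos family gave 1 clear fall and 1 result that did not pass the test. Fosl1 encodes Fra-1, a Fos protein without the transactivation domain of c-Fos that is itself a target of AP-1. Its signal was 3.97, 3.61 and 4.22 on AP 1, 2 and 3, against 246, 252 and 267 on control 1, 2 and 3. No AP scan was well above background and every control scan was, a pattern shown by 12.7% of the probes tested. Its AP signals were about equal to the scanner's own error estimates of 3.96, 3.60 and 4.20 on AP 1, 2 and 3. The fitted AP mean of -4.25 ± 0.06 (SD, n = 2, limma adjusted p = 0.000601) thus stood at the error level. Neither that SD nor the p measures a spread of Fosl1 in AP. Fosl1 was at least 9.88-fold lower. This sets the control mean of 0.80 ± 0.09 (SD, n = 2) against the dimmest level measured above background on the AP scans. The bound is approximate, since a single probe may become visible at another level.

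Fos encodes c-Fos, the classic immediate early partner of c-Jun, whose messenger RNA is short-lived. The Fos spot was dim everywhere, with a signal of 15.5, 3.86 and 4.48 on AP 1, 2 and 3, against 28.0, 23.3 and 26.9 on control 1, 2 and 3. The scanner's own error estimate for these values was 3.85 to 4.51 on the AP scans and 4.08 to 4.59 on the control scans. The signal of 1 AP array stood clearly above its error and that of the other was about equal to it, and neither was well above background, whereas all 3 control scans were. On the scaled log2 scale AP 1 stood at -2.33, above the control values of -2.40, -2.59 and -2.44, and AP 2 and 3 stood at -4.18 and -4.05, below them. The groups overlapped, and the difference of -0.76 ± 0.66 (SE, n = 2 each, adjusted p = 0.387, 95% interval -2.66 to 1.14) did not pass. Without AP replicate 1 Fos was -1.66 and called (limma adjusted p = 0.0160), and without the second AP array it was 0.13 (adjusted p = 0.505), so 1 array decides its value. No fold is given, since the bound for a probe this dim is under 1. In the authors' deposited table of normalized log2 values Fos stood at 4.34, 2.38 and 2.36 on AP 1, 2 and 3, where the last 2 are the floor of their columns, and at 4.01, 4.31 and 4.49 on control 1, 2 and 3.

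Atf3 encodes a stress-induced bZIP factor that represses as a homodimer and can activate as a partner of Jun. Its signal was 10.02, 13.1 and 13.95 on AP 1, 2 and 3, against 295, 216 and 220 on control 1, 2 and 3. The control scans were far brighter, though control 1 and the other control array differed more from each other than they did for Jun or Junb. The scaled values were -2.68 ± 0.39 on AP arrays and 0.81 ± 0.28 on control arrays (SD, n = 2 each). No AP scan was well above background, so Atf3 was at least 9.66-fold lower (limma adjusted p = 0.00246). In the authors' deposited table Atf3 was above the floor on the AP scans, at 3.76, 4.16 and 4.18, against 7.67, 7.26 and 7.25 on control 1, 2 and 3.

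Maff encodes a small Maf protein, which has a bZIP region but no transactivation domain and so depends on its partner. Its signal was 4.01, 3.29 and 3.92 on AP 1, 2 and 3, against 12.0, 3.17 and 3.55 on control 1, 2 and 3. No scan was well above background, so Maff was not tested, and a change was not detectable at this brightness. With no filter on dim probes its log2 difference was 0.21 ± 0.71 (SE, n = 2 each, limma adjusted p = 0.855).

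**Figure D2:**
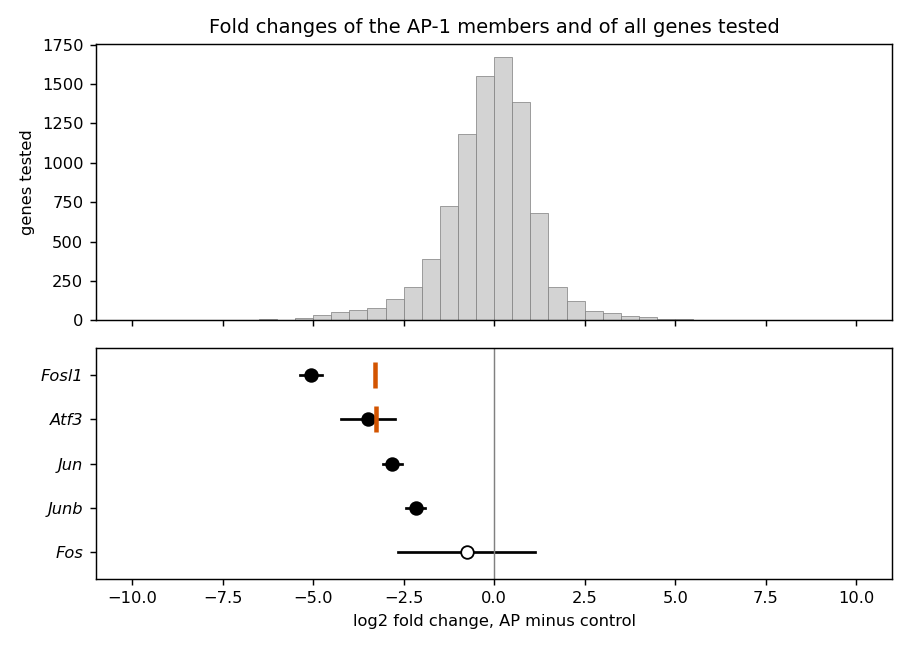
Top, number of genes per bin of log2 fold change (AP minus control) over the 8726 genes tested, brightest probe per gene; bottom, the 5 tested members with 95% intervals of the limma fit, filled where the adjusted p was below 0.05, with an orange bar at the bound where AP was not well above background. Jun, Junb, Atf3 and Fosl1 lie in the left tail and the interval of Fos crosses 0.

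Over all 8726 genes tested, 31.9% were lower and 24.1% higher at an adjusted p below 0.05. Of the 5 members tested, 4 were lower and none was higher, and Fos was not called. Their median log2 fold change was -2.81 against -0.03 over the 8726 genes tested. Fos, Fosl1 and Atf3 were well above background on control scans alone and entered the test through these. The median is the value of Jun, which stayed in the middle with those members at their bounds. The median of all genes was not taken with bounds. Every direction here follows the deposited labels, which no measurement in these files checks. Higher AP-1 activity early in pancreatitis is the known course, whereas these genes and many of their inflammatory targets were lower on the arrays labelled AP. Whether the group labels were exchanged was not tested, and an exchange would turn every direction given. In the authors' deposited table the members lay the same way, with Jun at 5.46 to 5.56 on AP scans and 8.32 to 8.34 on control scans, and Junb at 9.88 to 9.94 on AP scans and 12.10 to 12.25 on control scans. Without scaling between arrays the 4 called members fell further, from -3.12 for Junb to -6.00 for Fosl1, while the median of all genes stood at -0.99. With normexp background correction, an offset of 50 and the 75th percentile shift, the sizes shrank to -1.62 for Jun, -1.21 for Fosl1 and -1.19 for Atf3, and Junb was -2.38 (adjusted p 0.00143 or less).

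**Figure D3:**
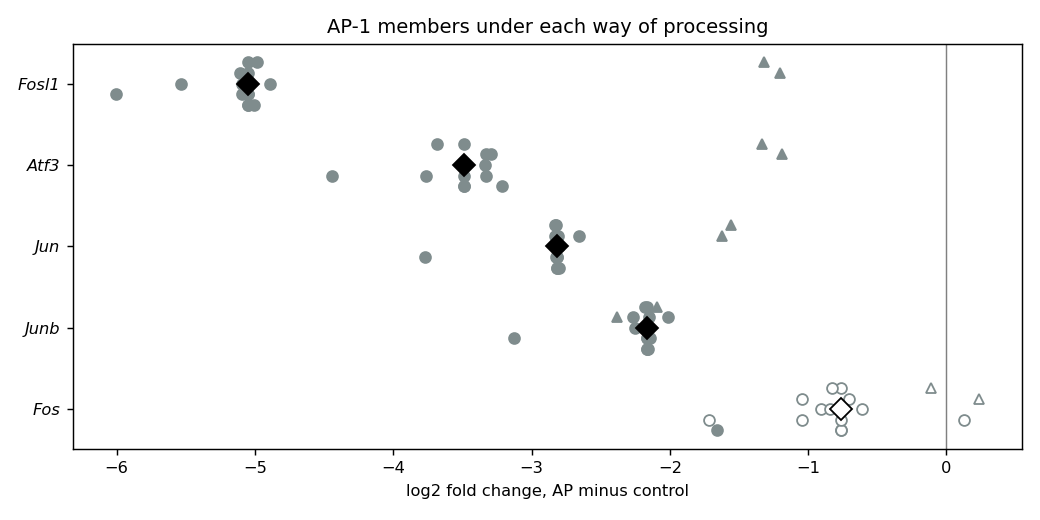
Log2 fold change (AP minus control) of each tested member with the processing reported in the text (black diamonds) and with 17 or 18 alternatives (grey; triangles are the normexp settings), filled where the limma adjusted p was below 0.05. Jun, Junb, Atf3 and Fosl1 stay below 0 and filled; Fos lies on both sides of 0 and is filled once, without AP replicate 1.

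RefSeq promoter windows, 250 bases before to 50 after the gene start on build GRCr8, were matched by symbol for 6 of the 9 members. These were Fosb, Fosl1, Fosl2, Junb, Jund and Maff. No window was matched for Fos, Jun and Atf3, so their promoters were not examined. The windows of Fosl1 and Junb, which were lower together, and of Maff, which was at background, are shown so that the elements named below can be read in place. Capitals mark every match, on either strand, to the AP-1 element TGACTCA, the CRE element TGACGTCA, which Jun-ATF dimers and CREB bind, the serum response CArG box, the TATA box TATAAA, the CCAAT box, the C/EBP element TTGCGCAA, and the GC box GGGCGG. No match overlapped another.
Fosl1, chr1:212183635-212183934, + strand: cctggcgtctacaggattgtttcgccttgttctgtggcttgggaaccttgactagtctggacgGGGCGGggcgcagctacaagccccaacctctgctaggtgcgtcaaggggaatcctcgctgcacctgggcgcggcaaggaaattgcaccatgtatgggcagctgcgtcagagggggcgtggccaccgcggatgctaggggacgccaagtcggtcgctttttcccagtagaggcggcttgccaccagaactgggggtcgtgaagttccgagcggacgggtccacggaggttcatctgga
Junb, chr19:40080876-40081175, + strand: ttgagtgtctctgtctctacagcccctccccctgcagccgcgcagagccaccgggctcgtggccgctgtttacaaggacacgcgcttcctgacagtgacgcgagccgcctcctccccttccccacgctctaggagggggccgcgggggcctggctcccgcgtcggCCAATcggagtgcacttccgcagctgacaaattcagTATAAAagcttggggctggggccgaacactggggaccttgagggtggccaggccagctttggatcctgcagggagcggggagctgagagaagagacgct
Maff, chr7:112792537-112792836, + strand: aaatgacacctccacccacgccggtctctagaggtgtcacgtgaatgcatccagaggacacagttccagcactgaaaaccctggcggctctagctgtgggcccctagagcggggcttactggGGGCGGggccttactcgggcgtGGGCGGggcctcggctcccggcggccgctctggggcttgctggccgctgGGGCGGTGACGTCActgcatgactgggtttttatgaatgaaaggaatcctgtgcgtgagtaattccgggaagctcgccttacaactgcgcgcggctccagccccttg

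No element stood in all 3 windows. The GC box stood in those of Fosl1 and Maff, and no other element was shared. Counted from the gene start, Fosl1 held 1 GC box, which began at -187. In Junb the CCAAT box began at -85 and the TATA box at -49. In Maff the CRE element began at -51, next to 1 of its 3 GC boxes. The Jund window also held a CRE element, which began at -221. TGACGTCA was found in 1.83% of all 33469 windows, TATAAA in 14.2%, CCAAT in 37.5% and GGGCGG in 33.1%. TGACTCA (4.63% of all windows), the CArG box (1.64%) and TTGCGCAA (0.17%) had no match in any of the 6 member windows, which says only that these letters are not there. A match is a description and not a bound site.

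Genes of other bZIP proteins that pair or compete with AP-1 members were lower more often than higher. Of 21 listed genes, 13 were tested, 7 were lower, 2 were higher and 4 missed the threshold. The median log2 fold change was -0.71 (-0.35 when dim genes entered at their bounds), against -0.03 over all genes. Of all 8726 genes tested, 56.0% changed at an adjusted p below 0.05, 31.9% lower and 24.1% higher. The small Maf gene Mafg stood at -0.73 ± 0.11 on AP arrays and 1.33 ± 0.09 on control arrays (SD, n = 2 each; -2.06 ± 0.12, adjusted p = 0.00146), and Mafk, the other small Maf with a probe, was lower too (-1.46 ± 0.11, adjusted p = 0.00234). Both are close relatives of Maff, and unlike it both were measured in each group.

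Among the partners of the small Mafs and the ATF and CREB genes, the 4 that changed were lower. Nfe2l1, which encodes the stress factor NRF1, was not well above background on AP scans and was at least 1.22-fold lower (adjusted p = 0.00369), and Nfe2l2, which encodes NRF2, was also lower (-1.29 ± 0.11, adjusted p = 0.00309). Atf4, the factor of the integrated stress response, stood at 3.67 ± 0.23 on AP arrays and 5.31 ± 0.02 on control arrays (-1.64 ± 0.15, SE, adjusted p = 0.00359). Creb1, a CRE-binding activator, was also not well above background on AP scans and was at least 1.28-fold lower (adjusted p = 0.00735). Neither Nfe2l1 (0.090) nor Creb1 (0.21) kept its call with normexp correction and the 75th percentile shift. The 2 genes that rose were Batf, 0.57 ± 0.16 on AP arrays against -1.10 ± 0.02 on control arrays (1.67 ± 0.12, adjusted p = 0.00235), and Batf3 (0.67 ± 0.11, adjusted p = 0.0123). Both encode bZIP proteins of lymphocytes and dendritic cells that pair with Jun proteins in place of Fos. Atf1 (-0.42), Crem (-0.30), Bach1 (0.67) and Atf7 (0.18) did not pass, although a second, dimmer Crem probe was lower (-2.77 ± 0.12, adjusted p = 0.00100). Jdp2, a Jun dimerization partner, and Bach2 were at background on all scans.

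Genes that carry signals to AP-1 were called in both directions at shares near those of all genes (31.9% lower and 24.1% higher). Of 30 MAP kinase genes, 17 were tested, 6 were lower, 5 were higher and 6 missed the threshold (median log2 fold change -0.18). The MAP kinase kinase Map2k3, an activator of p38, was lower (-2.07 ± 0.09, SE, adjusted p = 0.00101). Map2k1, the ERK activator MEK1, was lower (-1.28 ± 0.13, adjusted p = 0.00446), as was Mapkapk3, a kinase downstream of p38 (-1.46 ± 0.14, adjusted p = 0.00390). Mapk11, which encodes p38 beta, stood at -0.88 ± 0.11 on AP arrays and -3.35 ± 0.86 on control arrays (2.47 ± 0.46, adjusted p = 0.0173). Its control arrays were far apart. With 1 array left out its log2 fold change was 1.87 (without the second control array) to 3.08 (without control replicate 1), and its call was lost without either AP array (adjusted p 0.0685 and 0.0797). Relative to the rest of the array, 4 other kinase genes rose by 0.95 to 1.26 (Map3k1 1.26, Rps6ka1 1.12, Map2k4 1.05 and Map3k14 0.95). Map2k4 is an activator of JNK. The JNK gene Mapk8 had no probe, and Mapk9 and Mapk10, the other JNK genes, were at background on all scans. The serum response factor and its cofactors switch on Fos through the CArG box. Their list also held Creb1 and Crtc2, which are not among those cofactors, and 5 of its 8 genes were tested. Srf itself was not past the threshold (-0.21 ± 0.10, adjusted p = 0.166), nor were Elk3 (0.38) and Crtc2 (0.41), Elk4 was higher (0.60 ± 0.10, adjusted p = 0.0141), and Creb1 is given above.

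The feedback genes of MAP kinase signalling were mainly lower. Across all genes tested, 31.9% were lower and 24.1% higher. The list held 16 genes, which were phosphatase and sprouty genes and Zfp36, which is neither. Of these, 10 were tested and 7 were lower, Zfp36 among them (-0.99 ± 0.10, SE). A further 1 was higher (Dusp2, a phosphatase of lymphocytes, 0.84 ± 0.09) and 2 missed the threshold (Dusp5 -0.31 and Dusp8 0.34). The median of the tested genes of the list was -1.22, and -1.11 when dim genes entered at their bounds. Dusp1, a phosphatase that switches off p38 and JNK, stood at -0.35 ± 0.19 on AP arrays and 3.29 ± 0.06 on control arrays (-3.64 ± 0.14, SE, adjusted p = 0.000814). Spry2, a sprouty inhibitor of growth factor signals, was lower (-3.23 ± 0.09, adjusted p = 0.000669), Dusp6, a phosphatase of ERK, was at least 2.34-fold lower, and Dusp10 and Dusp16, phosphatases of JNK and p38, were lower (-1.47 ± 0.10 and -1.44 ± 0.10, adjusted p 0.00213 or less).

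**Figure D4:**
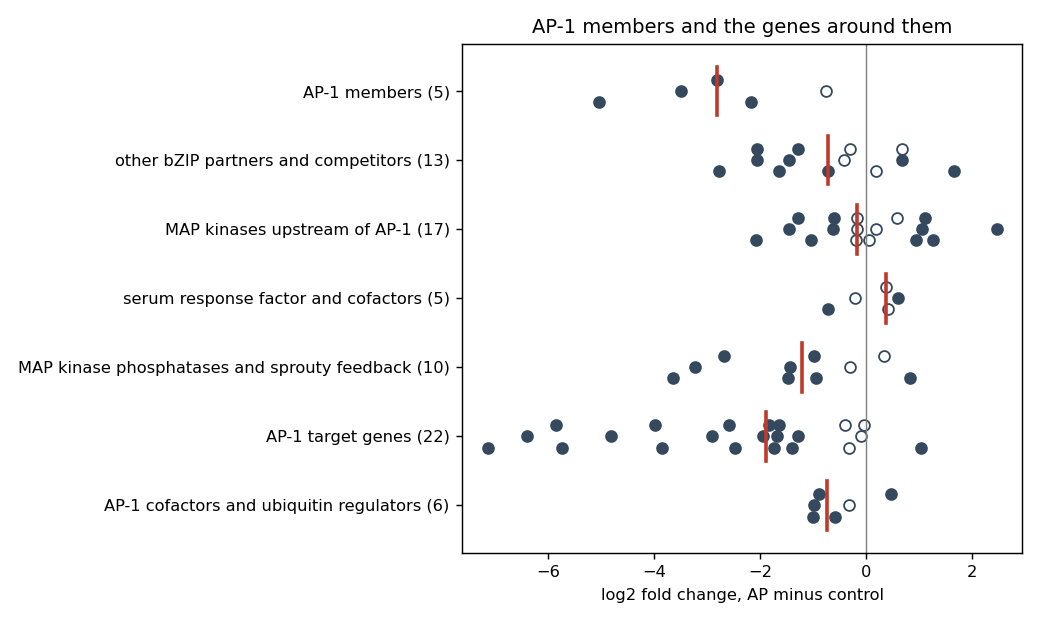
Log2 fold change (AP minus control) of each tested gene of the AP-1 members and of the 6 lists around them, number of genes tested in brackets, filled where the limma adjusted p was below 0.05, red bars at the median of the list. The members and the target genes reach furthest to the left; the MAP kinases lie on both sides of 0.

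While 31.9% of all genes tested were lower and 24.1% higher, the known targets of AP-1 were mainly lower. Of 32 genes that AP-1 is known to regulate, 22 were tested, 17 were lower, 1 was higher and 4 missed the threshold. Their median was -1.90, and -1.76 when dim genes entered at their bounds. These dim targets, 6 in number, were not well above background on AP scans and entered the test through control scans alone. They were Il6, Plaur, F3, Areg, Hbegf and Edn1. F3 was 7.56-fold lower. Its own AP signal lay above the dimmest level above background, so this is the fitted value and not a lower limit. With normexp correction and the 75th percentile shift the log2 fold change of F3 was -1.14. Areg and Hbegf were at least 1.32-fold and 1.29-fold lower. The bound of Edn1 was under 1, so no fold is given for it. Plaur, the urokinase receptor gene, was 28.1-fold lower in the fit and 27.4-fold at its bound. That bound is not a lower limit either, since the second AP array lay above the dimmest level. Il6, a cytokine of the acute phase, was at least 29.1-fold lower. Ccl2, which draws monocytes, was 57.8-fold lower, and Timp1, an inhibitor of matrix metalloproteinases, 53.3-fold. For these 4 genes, which were among the called targets with the largest fitted changes, the limma adjusted p was 0.00100 or less. With normexp correction and the 75th percentile shift the log2 fold changes were -2.23 for Plaur and -2.27 for Il6, against -5.27 for Ccl2 and -5.79 for Timp1. Those of Plaur and Il6 were far smaller in size than the folds given above. Plau, which encodes urokinase itself, was the gene that rose, with 5.63 ± 0.19 on AP arrays and 4.59 ± 0.02 on control arrays (1.04 ± 0.13, adjusted p = 0.00736). Ptgs2, the inducible cyclooxygenase, did not pass (-0.04 ± 0.21, adjusted p = 0.884), nor did Ccnd1 (-0.09), Icam1 (-0.39) and Gadd45b (-0.32). The matrix metalloproteinases Mmp3, Mmp10 and Mmp13, standard AP-1 targets, were at background on all scans, as were Egfr and Lif.

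Genes for cofactors and for proteins that control Jun turnover showed smaller differences. For comparison, 31.9% of all genes tested were lower and 24.1% higher. Of 13 listed genes, 6 were tested, 4 were lower (among them Cops5 -1.01 and Cop1 -0.98), Crebbp, a histone acetyltransferase that Jun recruits, was higher (0.46 ± 0.11, adjusted p = 0.0288) and 1 was not past the threshold. Cops5 encodes a co-activator of c-Jun in the COP9 signalosome, and Cop1 a ubiquitin ligase that marks c-Jun for destruction.

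The genes called higher in these lists were so relative to the rest of the array. Without scaling, where the median of all genes stood at -0.99, only Batf and Mapk11 among them were still called higher. Plau was then 0.08 (limma adjusted p = 0.577), Map2k4 0.09, Rps6ka1 0.16 and Map3k1 0.30, none past the threshold, while Batf3, Elk4, Dusp2, Map3k14 and Crebbp turned to -0.29, -0.35, -0.12, -0.012 and -0.49, of which that of Crebbp was past it (adjusted p = 0.0185). With normexp correction before the 75th percentile shift, the calls of Dusp6, Nfe2l1 and Creb1, all dim on AP scans, were lost as well (0.021, 0.090 and 0.21, adjusted p 0.575 or more), and so were those of Cop1 (-0.22, adjusted p = 0.537) and Mapkapk3 (-0.65, adjusted p = 0.0640), which were not dim. Of the genes called higher, Plau, Map2k4, Map3k1, Rps6ka1, Map3k14, Batf3, Elk4, Dusp2 and Crebbp lost their calls there too (limma adjusted p 0.108 or more). Batf (0.76) and Mapk11 (0.77) kept theirs. In that setting Mafg was -1.22, Spry2 -1.56 and Dusp1 -2.62, and each kept its call. With any 1 array left out, Crebbp was not called (adjusted p 0.0574 to 0.107), nor was it with the replicate block (adjusted p = 0.0794). Leaving out a single array also ended the calls of Elk4, Map2k4, Batf3, Cop1 and the target gene Hbegf in some cases. The log2 fold change of Hbegf was then -2.15 to -1.32.

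The genes nearest to each member in pattern were found by the distance between scaled values, each less its mean, over the 4 arrays and 8675 genes. Nearest to Jun were Tuba1a (distance 0.0386), Pim3 (0.0623) and Btg3 (0.0703), and nearest to Junb were Ftl1 (0.0274), Bpgm (0.0340) and Ifitm2 (0.0558). For Fosl1 they were Serpinb2 (0.111), Slc2a4 (0.113) and Hacd1 (0.114), all not well above background on AP scans like Fosl1 itself, for Atf3 Pnpla2 (0.236) and Rhd (0.270), and for Fos Tcn2 (0.229), Flrt3 (0.233) and Cln8 (0.262). Tcn2 shared with Fos the split of the AP arrays, at 2.60 and 1.07 on the first and second AP array against 2.55 and 2.63 on the control arrays, and its spot was well above background.

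Markers of several cell types moved with the same contrast, and their part in the AP-1 result was not tested. Among all genes tested, 31.9% were lower and 24.1% higher, which the counts of each marker list can be read against. Sums below are signals relative to the 75th percentile over the tested genes of a list with a value on every array. Acinar markers were measured in both groups: 16 of 20 were tested, 9 were higher and none lower. The acinar sum was 114 to 123 on AP arrays and 94.8 to 95.3 on control arrays, while Ptf1a and Rbpjl were at background on all scans. The acinar median log2 fold change of 0.76 is relative to the rest of the array. Without scaling, where the median of all genes stood at -0.99, the marker lists were not run. Of the adipocyte markers, 8 of 10 tested were lower (sum 18.0 to 18.2 on AP arrays, 506 to 511 on control arrays), and of the erythroid markers 8 of 9 were lower and 1 higher (30.8 to 31.7 on AP arrays, 646 to 746 on control arrays). Of the neutrophil markers, 4 of 7 were lower and 2 higher (1.75 to 2.70 on AP arrays, 22.8 to 24.7 on control arrays), with Ltf and Mmp8 at background on all scans. For fibroblasts and stellate cells, 8 of 11 markers were lower and 1 higher (56.0 to 65.0 on AP arrays, 238 to 267 on control arrays). Of the lymphocyte markers, 11 of 12 were higher and 1 lower (45.1 to 46.7 on AP arrays, 3.95 to 4.73 on control arrays), with Cd4 and Ccr7 at background on all scans.

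The remaining marker lists were as follows. For monocytes and macrophages, 6 of 14 markers were lower and 2 higher (47.6 to 48.7 on AP arrays, 60.7 to 61.6 on control arrays), with Cd163 at background on all scans. For duct cells, 4 of 7 markers were lower (9.44 to 9.71 on AP arrays, 22.4 to 23.1 on control arrays), with Cftr at background on all scans. Of the endothelial markers, 3 of 4 were lower and 1 higher (3.29 to 3.33 on AP arrays, 10.8 to 10.98 on control arrays), with Cdh5 at background on all scans. Of the islet markers, 2 of 6 were lower and 2 higher (4.50 to 5.02 on AP arrays, 8.51 to 10.4 on control arrays), with Chga, Chgb, Gcg, Pcsk1 and Pcsk2 at background on all scans.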

How the data were processed

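Cy3 arrays of rat pancreas, 3 scans labelled AP and 3 labelled control, were compared. Per the file headers, the authors' Agilent Feature Extraction 11.0.1.1 gave each spot a detrended, background-subtracted intensity and did not scale arrays to each other, on a design annotated on rn4. A second deposited table holds log2 values of the same scans, scaled in a way not stated, and was used as an alternative.

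Marked outlier spots and control probes were left out, spots of a probe were averaged on the log2 scale, and the 75th percentile of the array was subtracted. Scans whose spot deviations correlated above 0.9 (probes with 3 spots and a signal above 200) were averaged as 1 array. A probe entered the fit if 3 or more of the 6 scans had it well above background; the fit was made with limma 3.58.1 (lmFit and eBayes, R 4.3.3; 2 residual degrees of freedom, two-sided, Benjamini-Hochberg over 13217 probes, threshold 0.05). The procedure was tested on simulated data. For a probe that no scan of a group had well above background, the fold is a bound against, per scan, the higher of the dimmest signal above background and the probe's own. Where the probe's own signal was the higher, the fold is not a lower limit. Symbols came from current RefSeq genes by unversioned accession (14286 of 24684 probes); the brightest probe stood for a gene. Genome positions of the array design were not used here. Tables and figures were made in Python 3.11.15 (pandas 2.3.3, numpy 2.4.6; matplotlib 3.10.9).

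Members and gene lists were chosen with earlier results of these data known. Named were all members, of each list around them the up to 5 called genes with the largest change, the 3 nearest genes in pattern, and genes that spell out a count of 5 or fewer or that were singled out, which were chosen after their values were seen. Of the marker lists counts and sums are given, with markers that were at background on all scans. The normexp alternative used median spot signals (offset 50). Replicate numbers were not taken as pairs. Some genes that these rules name are not reported here.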

Additional observations from a re-analysis of the deposited data

How the results depend on the processing

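In all, 18 alternatives were tried, 1 of them (crossed pairing) chosen after seeing the data. Jun and Junb kept their direction and call in all 18, and Fosl1 and Atf3 in the 17 that tested them, with log2 fold changes of -3.77 to -1.56, -3.12 to -2.01, -6.00 to -1.21 and -4.45 to -1.19 for Jun, Junb, Fosl1 and Atf3. Fos turned to 0.24 (adjusted p = 0.534) under normexp with the 75th percentile shift and to 0.13 (0.505) without the second AP array, and was -1.66 (0.0160) without AP replicate 1. Over its 17 alternatives the limma adjusted p of Fos was 0.0160 to 0.593, and Fos was called in 1 of them. Of the list genes called, those that reversed without scaling were Batf3 (-0.29), Crebbp (-0.49), Dusp2 (-0.12), Elk4 (-0.35) and Map3k14 (-0.012), and under that normexp setting Areg (0.19), Creb1 (0.21), Dusp6 (0.021), Edn1 (0.31), Hbegf (0.18) and Nfe2l1 (0.090). With probes above background on all 6 scans only 2 members, Jun and Junb, were tested and called lower, since fewer probes were tested. With any 1 array left out, 4 or 5 members were called lower, 4640 to 5842 probes were called against 7280 (4640 without the second control array), and 42 to 46 genes of the 6 lists against 52; a group with 1 array was assumed to vary like the other. Under normexp with the 75th percentile shift 2658 probes and 33 list genes were called; the cause was not tested. Of the calls, 48.8% were higher in AP; this was 8.97% without scaling, 35.2% under that normexp setting and 66.9% with no filter. The median over genes moved to -0.99, 0.12 and 0.24 in these settings, and to 0.12 with the percentile over bright probes.

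With the replicate block 5515 probes, 4 members and 49 list genes were called. Same-numbered arrays deviated with r = -0.21 over 13146 probes, which share only a number; with crossed pairing 7292 probes were called. Each member had 1 probe, so the mean over a gene's probes was not run. The fit within the first scan session called 7232 probes; the second session, with a single scan of each group, allowed no test, and the session as a block gave 9161 calls over scans that repeat an array. Spots near background (Fos, Fosl1, Atf3, Maff) limit what can be measured, and each member rests on 1 spot per array.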
